A study of Mus musculus with 12 samples.

Results

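The genes described here are 10 genes of peroxisome proliferator-activated receptor (PPAR) signalling and fatty acid breakdown, namely Pparg, Ppard, Cpt1a, Acadvl, Acadl, Acadm, Hadha, Acot7, Acot9 and Hsd17b11. They were chosen by name, out of 18194 genes measured in the series, and every probe set annotated to one of them was read. That gave 18 of 45037 probe sets, of which 16 name 1 gene alone and 2 name 2 genes, and the values of a gene are those of its brightest probe set, by the mean of the 12 arrays, that names no other gene. Pparg, Acot9 and Hsd17b11 also stand on the study's own lists of changed genes, which were made from these same arrays, so their changes are described here and are not independent evidence.

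The study asked how the kinases PDK1 and Akt shape the transcriptional programme of cytotoxic T lymphocytes (CTL), the killer T cells that IL-2 maintains in culture. Total RNA was measured on 12 Affymetrix arrays of the mouse genome in 4 groups of 3, and each array carried cells from 1 mouse on the C57BL/6 strain. All cells were splenic T cells activated for 48 hr with CD3 antibody (0.5 μg/ml) together with IL-2 (20 ng/ml), then kept in IL-2 for 5 days. In the Pdpk1 experiment, Cre control CTL carried TamoxCre, a tamoxifen-activated Cre expressed from the ROSA26 locus, and wild-type Pdpk1, the gene that encodes PDK1. Pdpk1-null CTL came from PDK1fl/fl TamoxCre mice. Both groups were given 0.6 μM 4OHT, the active form of tamoxifen, for the last 72 hr. Cre and 4OHT were thus shared, and the floxed alleles were the intended difference between mice. In a separate experiment, CTL from 3 wild-type mice were grown in IL-2 alone or, in part of each culture, with 1 μM of the Akt inhibitor AktI for the last 48 hr. The labels give no ages and state no sort of the cells after culture.

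The signals are log2 values from robust multichip averaging. The medians per array lay between 4.60 and 4.62 in the Pdpk1 experiment and between 5.10 and 5.14 in the Akt experiment, so effects and not levels were set side by side between experiments. Arrays of 1 group correlated with r of 0.996 to 0.998. A signal counted as above background where the group mean exceeded the 95th percentile of 80 probe sets for olfactory and vomeronasal receptors, which was a log2 signal of 4.45 in the Pdpk1 experiment and 4.99 in the Akt experiment. All 12 CTL markers were above this level in all 4 groups. All 10 genes were above it in Cre control and Pdpk1-null CTL, where 65% and 64.9% of all genes were, and 9 of 10, all but Pparg, in CTL without and with AktI, where 64.6% and 64.3% were. Of the 5 measured adipocyte markers, Adipoq, Lep, Fabp4 and Cidec were below it in all 4 groups. The remaining marker, Retn, was above it in all 4. Its means were 5.32 and 5.32 in Cre control and Pdpk1-null CTL, and 6.19 and 6.07 without and with AktI. The 2 Pdpk1 probe sets differed between Pdpk1-null and Cre control CTL by a log2 fold change of 0.05 (SE 0.0693) and -0.04 (SE 0.0658), and their position relative to the floxed exons is not known here, so they do not check the genotype labels.

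PPARs are nuclear receptors that bind fatty acids and their derivatives, pair with retinoid X receptors, and switch on genes for the uptake, storage and burning of fat. PPARγ, encoded by Pparg, is best known as the master regulator of fat cells, and PPARδ, encoded by Ppard, as an inducer of fatty acid oxidation in muscle and other tissues. To be burned, a fatty acid is coupled to coenzyme A, carried into the mitochondrion by the carnitine shuttle, and shortened in repeated rounds of beta-oxidation, while thioesterases can release it from coenzyme A again. T cells that divide rapidly rely mainly on glucose, and memory T cells are known for a greater use of fatty acid oxidation.

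The promoters of the genes on which the results turn are shown first, as the 250 bases before the annotated start of transcription in the RefSeq tables for GRCm38.p6, each read 5′ to 3′ on the strand of its gene. All 10 genes had a window, and Pparg had 3, giving 12 windows. Capitals mark AGGTCA on either strand, the core sequence that PPAR and other nuclear receptors recognise. Pparg, Acot9 and Hsd17b11 are shown because they passed the test after loss of PDK1, and Cpt1a because it differed most with AktI among the genes that act inside the mitochondrial pathway. The windows lie at chr6:115360894-115361143 (plus strand) and chr6:115362099-115362348 (plus strand) for Pparg, chr19:3323051-3323300 (plus strand) for Cpt1a, chrX:155262193-155262442 (plus strand) for Acot9 and chr5:104021797-104022046 (minus strand) for Hsd17b11.
Pparg, first start: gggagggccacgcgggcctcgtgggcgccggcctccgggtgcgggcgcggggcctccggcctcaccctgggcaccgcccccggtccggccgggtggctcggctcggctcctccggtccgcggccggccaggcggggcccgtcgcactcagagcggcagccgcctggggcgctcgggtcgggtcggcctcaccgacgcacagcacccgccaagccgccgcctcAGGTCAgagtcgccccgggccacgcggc
Pparg, second start: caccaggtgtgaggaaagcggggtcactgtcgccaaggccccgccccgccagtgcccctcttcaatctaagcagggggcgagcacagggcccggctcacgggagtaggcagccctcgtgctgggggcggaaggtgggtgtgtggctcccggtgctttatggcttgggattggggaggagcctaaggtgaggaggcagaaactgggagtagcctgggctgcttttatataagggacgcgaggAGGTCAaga
Cpt1a: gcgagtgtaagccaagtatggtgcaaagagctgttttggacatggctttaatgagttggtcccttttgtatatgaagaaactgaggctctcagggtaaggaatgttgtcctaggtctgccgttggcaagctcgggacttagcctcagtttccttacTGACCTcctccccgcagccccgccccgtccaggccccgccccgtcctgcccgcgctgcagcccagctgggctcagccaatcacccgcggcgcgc
Acot9: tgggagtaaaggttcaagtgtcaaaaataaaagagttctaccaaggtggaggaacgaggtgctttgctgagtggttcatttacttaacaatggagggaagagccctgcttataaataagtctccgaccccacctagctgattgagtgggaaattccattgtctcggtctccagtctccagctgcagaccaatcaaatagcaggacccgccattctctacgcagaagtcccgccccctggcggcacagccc
Hsd17b11: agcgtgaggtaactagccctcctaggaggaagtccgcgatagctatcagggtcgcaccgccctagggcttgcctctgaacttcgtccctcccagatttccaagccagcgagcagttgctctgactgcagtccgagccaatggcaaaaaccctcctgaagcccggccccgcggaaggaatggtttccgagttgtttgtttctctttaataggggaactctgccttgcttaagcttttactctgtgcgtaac

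The core AGGTCA, searched on both strands, was found in 5 of the 12 windows, against 14% of all 32851 promoter windows of this length. Pparg alone supplied 3 of the 12 windows. By gene, Pparg, Cpt1a, Acadvl and Acadm of the 10 had a match, against 15.8% of all 27025 genes with a window. The matches lay 28 and 9 bases before the first and second Pparg start, 94 bases before the Cpt1a start, 87 bases before the Acadvl start and 249 bases before the Acadm start. The paired form AGGTCANAGGTCA, which contains the core as part of itself, was found in 0 of the 12 windows and in 0.0335% of all windows. GTAAACA, the core recognised by forkhead factors such as the FOXO proteins that Akt phosphorylates, was in 0 of the 12 windows and in 3.17% of all windows. The first and second Pparg windows thus hold the AGGTCA core within these 250 bases, and those of Acot9 and Hsd17b11 do not. These are matches of letters and say nothing about binding.

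Loss of PDK1 was compared first. Pparg signal fell 2.03-fold in Pdpk1-null CTL, while Acot9, a mitochondrial acyl-CoA thioesterase, rose 1.71-fold and Hsd17b11, a lipid droplet enzyme of the hydroxysteroid dehydrogenase family, rose 1.96-fold (n = 3 arrays per group). The other 7 genes, among them all 5 that act in the carnitine shuttle or in mitochondrial beta-oxidation, did not pass. A gene passed at an adjusted p under 0.05 from limma, with Benjamini-Hochberg adjustment over all 45037 probe sets, and a change of at least 1.5-fold. Thus 2 of the 10 genes were called higher and 1 lower, where 1.36% of all genes were called (1.01% higher and 0.357% lower). With the adjusted p alone the same 3 genes differed, against 2.37% of all genes (1.63% higher and 0.742% lower). The median log2 fold change was 0.07 over the 10 genes and -0.01 over all genes. The groups did not overlap for 5 of the 10 genes, 4 of them higher and 1 lower, against 24.7% of all genes (10.9% higher and 13.7% lower).

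**Figure D1:**
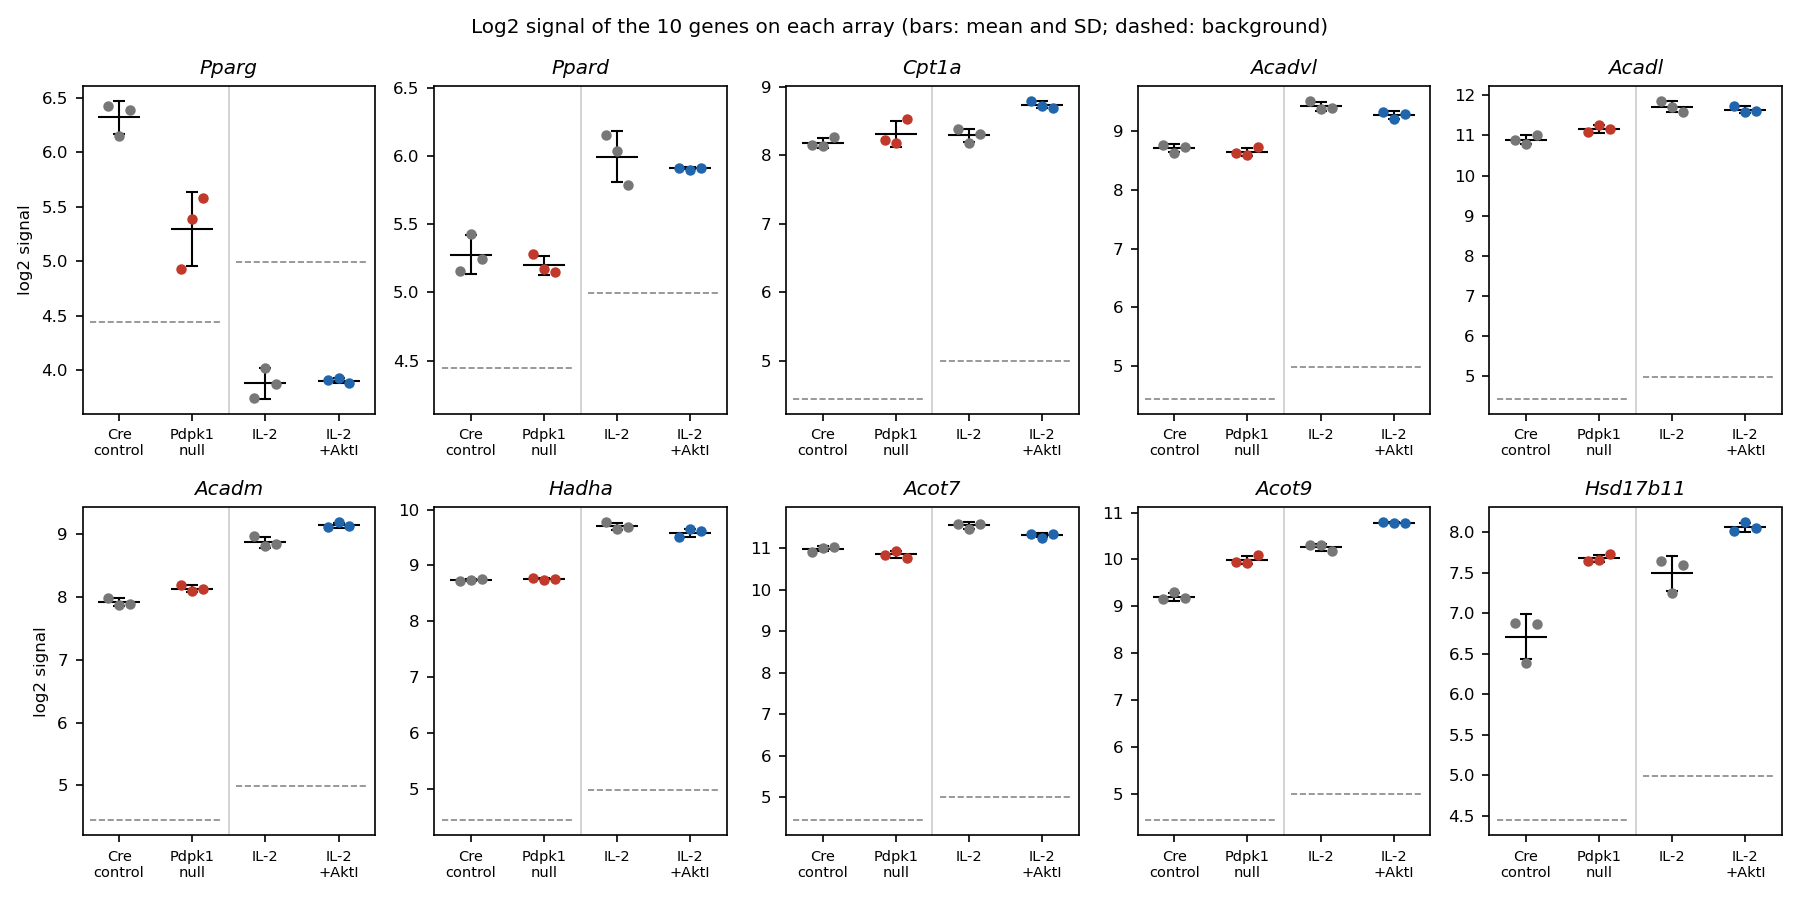
Log2 signal (vertical axis) of each of the 10 genes on each of the 12 arrays, grouped as Cre control and Pdpk1-null CTL on the left of each panel and CTL without and with AktI on the right. Points are arrays, bars are the mean and SD of 3 arrays, dashed lines are the background of each experiment, and each panel has its own scale that does not start at 0. Pparg lies above background in the Pdpk1 experiment and below it in the Akt experiment, and the signals of Acot9 and Hsd17b11 do not overlap between the groups of either experiment.

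The 2 receptors differed in their response. Pparg (chr6:115360879-115490404) gave log2 signals of 6.42, 6.15 and 6.39 in the Cre control arrays and 4.92, 5.38 and 5.58 in the Pdpk1-null arrays. All 3 Pdpk1-null arrays were lower than every control array and still above background, by 0.85 on average, where the controls were above it by 1.87. The log2 fold change was -1.02 (SE 0.159, 95% confidence interval -1.39 to -0.66, adjusted p = 0.0208 by limma). The call rests on all 3 control arrays, since the adjusted p was 0.0814, 0.0580 and 0.0943 without the first, the second and the third of them, with log2 fold changes of -0.97, -1.11 and -0.99. In a bulk culture, fewer cells with a transcript and less transcript per cell cannot be told apart.

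Ppard (chr17:28232754-28301469) gave 5.16, 5.43 and 5.24 in Cre control CTL and 5.28, 5.17 and 5.15 in Pdpk1-null CTL. These values overlapped, with a log2 fold change of -0.08 (SE 0.0879, 95% confidence interval -0.28 to 0.12, adjusted p = 0.755). Ppard lies on the chromosome of Pdpk1 itself, 4077 kb away with 130 measured genes between them. Around Pdpk1, 327 measured genes were taken in order of position, up to a fixed number on each side. The end of the chromosome came first on 1 side, so these are not strictly the nearest by distance. Of the 327 genes, 18 were called (5.50%), against 1.36% of all genes, and Ppard was not 1 of those called. The cause of this excess was not tested.

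Cpt1a (chr19:3322326-3385735) encodes the carnitine palmitoyltransferase that admits long-chain fatty acids to the mitochondrion and limits the rate of their oxidation. It gave 8.15, 8.13 and 8.26 in Cre control CTL and 8.22, 8.17 and 8.53 in Pdpk1-null CTL. The third Pdpk1-null array stood highest and the others lay within the control range, with a log2 fold change of 0.13 (SE 0.102, 95% confidence interval -0.11 to 0.36, adjusted p = 0.631).

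The acyl-CoA dehydrogenases carry out the first step of each round of beta-oxidation, and Acadvl, Acadl and Acadm act on very long, long and medium chains. Acadvl (chr11:70010183-70015428) gave 8.76, 8.63 and 8.74 against 8.62, 8.59 and 8.73, with overlap and a log2 fold change of -0.06 (SE 0.0734). Acadl (chr1:66830839-66863309) gave 10.89, 10.78 and 11.00 in controls and 11.07, 11.27 and 11.15 in Pdpk1-null CTL. Acadm (chr3:153922353-153944643) gave 7.98, 7.87 and 7.90 against 8.19, 8.09 and 8.13. For both Acadl and Acadm every Pdpk1-null array was above every control array, yet the differences were small and did not pass. Acadl differed by a log2 fold change of 0.27 (SE 0.0849, 95% confidence interval 0.08 to 0.47, adjusted p = 0.169) and Acadm by 0.22 (SE 0.0692, 95% confidence interval 0.06 to 0.38, adjusted p = 0.175).

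Hadha (chr5:30119423-30154980), the alpha subunit of the trifunctional protein that carries out the later steps for long chains, gave 8.72, 8.75 and 8.76 in controls and 8.77, 8.75 and 8.76 in Pdpk1-null CTL. The log2 fold change of 0.02 had a 95% confidence interval of -0.12 to 0.16, which excludes a change of 1.5-fold, a log2 fold change of 0.58, in either direction. The same held for Ppard, Cpt1a, Acadvl, Acadl, Acadm and Acot7.

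The thioesterases, which cleave acyl-CoA to free fatty acid and coenzyme A, did not move together. Acot7 (chr4:152178100-152271855), a mainly cytosolic thioesterase, gave 10.92, 11.02 and 11.04 against 10.85, 10.94 and 10.78, with a log2 fold change of -0.14 (SE 0.0745, 95% confidence interval -0.31 to 0.03, adjusted p = 0.436). Acot9 (chrX:155262443-155297654) gave 9.15, 9.31 and 9.17 in Cre control CTL and 9.94, 9.92 and 10.09 in Pdpk1-null CTL. The groups were separated by far more than the spread within either, with a log2 fold change of 0.77 (SE 0.0794, 95% confidence interval 0.59 to 0.96, adjusted p = 0.00418). Acot9 lies on the X chromosome, and Xist was alike in the 2 groups, with mean log2 signals of 10.54 and 10.61.

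Hsd17b11 (chr5:103989765-104021796) gave 6.87, 6.39 and 6.87 in Cre control CTL and 7.65, 7.66 and 7.73 in Pdpk1-null CTL. The second control array was the lowest, and the 3 Pdpk1-null arrays lay close together above all controls. Hsd17b11 rose by 0.97 on the log2 scale (SE 0.129, 95% confidence interval 0.67 to 1.26, adjusted p = 0.0124). Without the third Pdpk1-null array it was 0.94 and the adjusted p was 0.0577. With the mean of all 3 Hsd17b11 probe sets, of which 1 is below background throughout, it was 0.59 (adjusted p = 0.0152) and still passed.

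Akt inhibition was compared next. The pairing of arrays by mouse was not used in the main fit. With AktI, Acot9 and Hsd17b11 were again higher, by 1.43-fold and 1.48-fold, and Cpt1a was higher by 1.36-fold (n = 3 mice). All 3 had an adjusted p under 0.05 and stayed under the 1.5-fold minimum, so that 0 of the 10 genes passed, where 2.53% of all genes were called (1.51% higher and 1.03% lower). At an unadjusted p under 0.05 without a fold minimum, 5 of the 10 genes differed with AktI, against 20.3% of all genes, and 5 of the 10 after loss of PDK1, against 17.3%. With the adjusted p alone the count was 3 of 10, all higher, against 6.59% of all genes (3.66% higher and 2.94% lower). The median log2 fold change was -0.02 over the 10 genes and -0.02 over all genes. The groups did not overlap for 7 of the 10 genes, 4 of them higher and 3 lower, against 27.4% of all genes (12.7% higher and 14.8% lower).

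**Figure D2:**
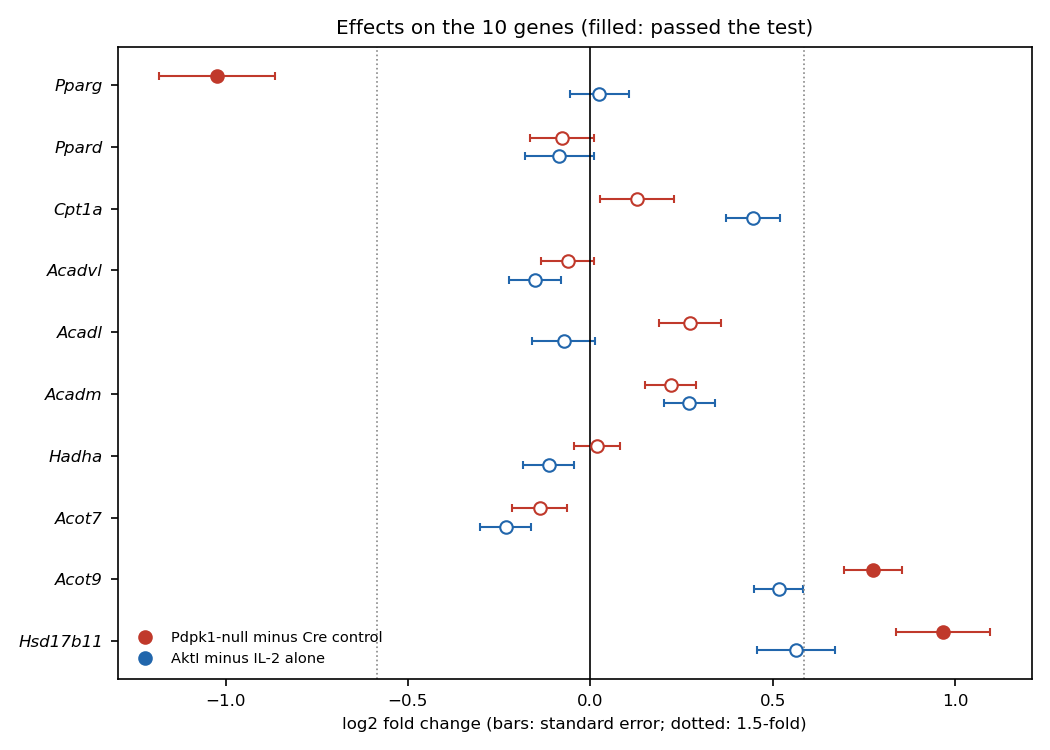
Log2 fold change (horizontal axis) of the 10 genes after loss of PDK1 and with AktI, with bars for the standard error and dotted lines at 1.5-fold. Filled points passed the test. Pparg is to the left only after loss of PDK1, and Acot9 and Hsd17b11 are to the right in both comparisons, with the AktI points just inside the dotted line.

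In the Akt experiment Pparg was below background in both groups, with log2 signals of 3.74, 4.02 and 3.88 in IL-2 alone and 3.91, 3.92 and 3.88 with AktI. A fall could therefore not be seen, and the log2 fold change of 0.02 (SE 0.0818, adjusted p = 0.922) does not show that Pparg is insensitive to AktI. The other 9 genes were above background in all 4 groups. Ppard gave 6.15, 6.04 and 5.79 in IL-2 alone and 5.91, 5.90 and 5.91 with AktI, overlapping values with a log2 fold change of -0.09 (SE 0.0945, 95% confidence interval -0.30 to 0.13, adjusted p = 0.724).

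Cpt1a gave 8.38, 8.18 and 8.31 in IL-2 alone and 8.79, 8.71 and 8.70 with AktI. Every treated array was above every untreated one, and the log2 fold change was 0.45 (SE 0.0738, 95% confidence interval 0.28 to 0.61, adjusted p = 0.011 by limma). The upper end of that interval lies just past 1.5-fold.

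The dehydrogenases did not share a direction. Acadvl gave 9.52, 9.38 and 9.39 in IL-2 alone and 9.33, 9.20 and 9.29 with AktI, a log2 fold change of -0.15 (SE 0.0713, 95% confidence interval -0.32 to 0.01, adjusted p = 0.315) with no overlap. Acadl gave 11.86, 11.70 and 11.59 against 11.74, 11.58 and 11.61, with overlap and a log2 fold change of -0.07 (SE 0.0858, adjusted p = 0.74). Acadm gave 8.97, 8.81 and 8.84 against 9.11, 9.19 and 9.13, a log2 fold change of 0.27 (SE 0.0701, 95% confidence interval 0.11 to 0.43, adjusted p = 0.0682) with no overlap. Among these 3 enzymes of the same step, the medium-chain enzyme was thus on the higher side of its controls, the very long-chain enzyme on the lower side, and neither passed. Hadha gave 9.77, 9.65 and 9.68 against 9.51, 9.64 and 9.61, with a log2 fold change of -0.11 (SE 0.0697, adjusted p = 0.464).

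Acot7 gave 11.60, 11.46 and 11.59 in IL-2 alone and 11.36, 11.25 and 11.35 with AktI, so every treated array was lower, by a log2 fold change of -0.23 (SE 0.07, 95% confidence interval -0.39 to -0.07, adjusted p = 0.114). Acot9 gave 10.31, 10.30 and 10.18 against 10.79, 10.78 and 10.77. Acot9 thus had a log2 fold change of 0.52 (SE 0.0667, 95% confidence interval 0.36 to 0.67, adjusted p = 0.0034). The means of the mitochondrial and the cytosolic thioesterase thus lay on opposite sides of their control means in both comparisons. The Acot7 groups overlapped after loss of PDK1, however. Of these 4 differences only the rise of Acot9 after loss of PDK1 passed.

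Hsd17b11 gave 7.64, 7.25 and 7.60 in IL-2 alone and 8.01, 8.12 and 8.05 with AktI. The second mouse had the lowest untreated value and the highest treated one. On the log2 scale the difference was 0.56 (SE 0.106, 95% confidence interval 0.32 to 0.81, adjusted p = 0.0197), just under the fold minimum. It passed without the first untreated array (0.64, adjusted p = 0.0295) and without the third (0.61, adjusted p = 0.0368). With the mean of all 3 probe sets it was 0.24 (adjusted p = 0.104).

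The difference between the effects was then tested as an interaction over all 12 arrays. Pparg was the only 1 of the 10 genes for which it passed, with a log2 difference of -1.05 (SE 0.194, 95% confidence interval -1.47 to -0.63, adjusted p = 0.0329 by limma), where 0.522% of all genes passed (0.319% with a higher and 0.203% with a lower effect of PDK1 loss). With the adjusted p alone it was again 1 of 10, against 0.616%. With the mouse or replicate number as a block the adjusted p was 0.0659, and it lay between 0.0552 and 0.100 in the 8 leave-outs of a single array that ended the call, which were Cre control 1 and 3, Pdpk1-null 2, IL-2 alone 1 and 3, and AktI 1, 2 and 3. Since Pparg was at background throughout the Akt experiment, this difference sets a fall against a signal that had no room to fall. For Ppard, Acadvl, Acadm, Hadha and Acot7 the log2 differences lay between -0.05 and 0.13, with adjusted p of 0.664 to 0.992. For Cpt1a the difference was -0.32 (SE 0.129, 95% confidence interval -0.60 to -0.04, adjusted p = 0.407) and for Acadl 0.35 (SE 0.123, 95% confidence interval 0.08 to 0.61, adjusted p = 0.317). The effects on Acot9 and Hsd17b11 were larger after loss of PDK1 by 0.26 (SE 0.101, 95% confidence interval 0.04 to 0.48, adjusted p = 0.38) and 0.40 (SE 0.18, 95% confidence interval 0.02 to 0.79, adjusted p = 0.465), and neither difference passed. The perturbations differ in length, 72 hr of 4OHT against 48 hr of AktI, and in the mice used.

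The other probe sets of the same genes were read for agreement. The second Acot9 probe set also names Acot10, a near-identical copy, so the share of each gene in it is uncertain. It gave a log2 fold change of 0.79 (SE 0.0867, adjusted p = 0.00581) after loss of PDK1, which passed, and 0.54 (SE 0.0746, adjusted p = 0.00504) with AktI. A second Hsd17b11 probe set passed after loss of PDK1 (adjusted p = 0.0232), from a mean of 3.71, below background, to 4.54, only 0.10 above it, so the size of its rise is not settled. In the Akt experiment it was at background, with means of 4.97 and 5.07, and its log2 fold change of 0.10 (SE 0.114, adjusted p = 0.739) says little about the response. The remaining Hsd17b11 probe set was below background in all 4 groups.

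The Cpt1a probe sets lay on the higher side in both comparisons. The second gave 0.32 (SE 0.0896, adjusted p = 0.13) after loss of PDK1 and 0.44 (SE 0.103, adjusted p = 0.049) with AktI. The third gave 0.24 (SE 0.118) and 0.34 (SE 0.0697), with both groups of the Akt experiment below background. The second Ppard probe set, which also names 1810013A23Rik, gave -0.17 (SE 0.118) and -0.07 (SE 0.106), and the third was below background throughout, as was the second of Acadl.

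**Figure D3:**
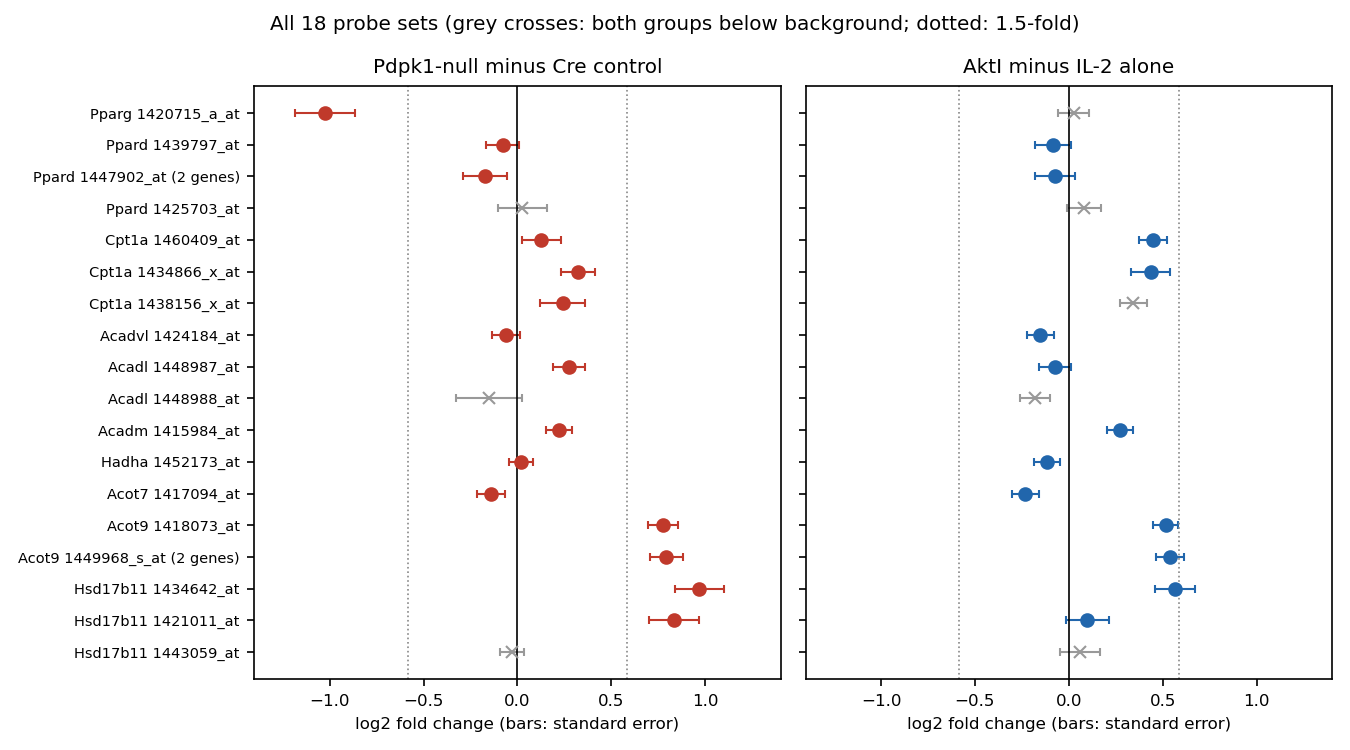
Log2 fold change (horizontal axis) of all 18 probe sets after loss of PDK1 (left) and with AktI (right), with bars for the standard error and dotted lines at 1.5-fold. Grey crosses mark probe sets below background in both groups of a comparison. The 2 Acot9 probe sets lie together in both panels, and the second Hsd17b11 probe set is at background in the Akt experiment.

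The rest of the pathway was read from 10 lists of genes, with the 10 genes above left out. Of 151 such genes measured, 115 were above background in at least 1 group. After loss of PDK1, 1 rose and 1 fell, with a median log2 fold change of 0.00, and with AktI 2 rose and 1 fell, with a median of -0.01. These shares are near those of all genes given above. With the adjusted p alone the counts were 2 higher and 1 lower after loss of PDK1, and 7 higher and 4 lower with AktI.

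Acss1, a mitochondrial enzyme that couples acetate to coenzyme A, was the only pathway gene to pass in both comparisons. Its signals were 4.61, 4.39 and 4.59 in Cre control CTL and 5.76, 5.20 and 5.63 in Pdpk1-null CTL, and 5.98, 5.97 and 5.66 in IL-2 alone and 6.77, 6.93 and 6.81 with AktI. It rose by 1.00 on the log2 scale after loss of PDK1 (SE 0.141, adjusted p = 0.0154) and by 0.97 with AktI (SE 0.098, adjusted p = 0.00112). The difference of 0.03 had an SE of 0.185. The Cre control mean of 4.53 was only just above the background of 4.45, and the second control array was below it. The size of the rise after loss of PDK1 is therefore not settled, and that call was lost with the mean of all probe sets. Acss1 was the only called gene of the 16 measured for fatty acid uptake and activation, and it acts on acetate, not on long-chain fatty acids.

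Of 19 measured genes of lipid droplets and lipolysis, 1 rose and 1 fell with AktI, where 2.53% of all genes were called, and both encode perilipins. Plin2, the perilipin that coats droplets in most cells and a known PPAR target, fell from a mean of 9.32 to 8.70, a log2 fold change of -0.61 (SE 0.0919, adjusted p = 0.00693). Plin3, a related coat protein that is also found in the cytosol, rose by 0.89 (SE 0.0724, adjusted p = 0.000359), from 7.12 to 8.01. The perilipin Plin5 did not pass with AktI (-0.15, SE 0.0968), and Plin4 was below background. After loss of PDK1 the log2 fold changes were -0.09 (SE 0.103) for Plin2 and 0.37 (SE 0.0987, adjusted p = 0.114) for Plin3, and neither difference between the comparisons passed (adjusted p = 0.178 and 0.113). Plin2 was the only called gene of the 21 measured PPAR targets, of which 9 were above background, and their median log2 fold change was 0.01 after loss of PDK1 and -0.08 with AktI.

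In the HSD17B family, to which Hsd17b11 belongs, Hsd17b7 moved the other way after loss of PDK1. Hsd17b7, an enzyme of cholesterol synthesis, gave 8.11, 8.35 and 8.06 in Cre control CTL and 7.56, 7.69 and 7.32 in Pdpk1-null CTL, a fall with a log2 fold change of -0.65 (SE 0.116, adjusted p = 0.0343). That call was lost with the mean of all probe sets, and also where the probe set with the smallest p was taken. With AktI the log2 fold change of Hsd17b7 was -0.42 (SE 0.0771, adjusted p = 0.017), under the fold minimum. The other 9 measured family members were called in neither comparison, and 4 of the 10 were above background.

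All 23 measured genes of mitochondrial beta-oxidation were above background and 0 passed in either comparison by limma, with medians of -0.02 and -0.05. With the adjusted p alone, 0 differed after loss of PDK1 and 1 with AktI, namely Eci1, an isomerase for unsaturated fatty acids, at 0.48 (SE 0.106, adjusted p = 0.0383). The largest differences after loss of PDK1 were those of Ivd, an enzyme of leucine breakdown (-0.21, SE 0.0838), and Hsd17b10 (-0.21, SE 0.0969). In the carnitine shuttle, 0 of 9 passed, with medians of -0.08 and 0.03, and with the adjusted p alone 1 was lower with AktI, Crot, a peroxisomal carnitine transferase (-0.36, SE 0.0759, adjusted p = 0.0315). Cpt2, the partner of Cpt1a on the inner membrane, gave -0.08 (SE 0.0676) and 0.04 (SE 0.0691), and Bbox1 and Slc22a5 gave the largest differences after loss of PDK1, at -0.18 (SE 0.11) and -0.10 (SE 0.0682).

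Peroxisomal beta-oxidation, which shortens very long chains, had 17 measured genes, and 0 passed in either comparison. Decr2, a peroxisomal reductase for unsaturated chains, came closest after loss of PDK1 with a log2 fold change of 0.47 (SE 0.0773, adjusted p = 0.0262), under the fold minimum. With AktI it gave -0.12 (SE 0.0729), and the difference of 0.58 had an adjusted p of 0.0279 and missed 1.5-fold narrowly. The position of Decr2 relative to Pdpk1 was not read, so its rise was not set against the calls around Pdpk1 given above. With AktI and the adjusted p alone, 1 gene was higher, the sterol carrier and thiolase Scp2 (0.38, SE 0.0677, adjusted p = 0.0157), and 1 was lower, the isomerase Ech1 (-0.41, SE 0.0783, adjusted p = 0.0219). Abcd3, a transporter of the peroxisomal membrane, gave -0.36 after loss of PDK1 (SE 0.0754, adjusted p = 0.0561).

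Among the partners and coregulators of PPARs, 12 of 13 were above background and 0 passed. Rxra and Rxrb, the retinoid X receptors with which PPARs pair, gave 0.18 (SE 0.0821) and 0.09 (SE 0.0745) after loss of PDK1 and 0.15 (SE 0.0911) and 0.12 (SE 0.0723) with AktI. The coactivator Ncoa2 and the corepressor Nrip1 gave 0.32 (SE 0.0806, adjusted p = 0.0947) and 0.27 (SE 0.0712, adjusted p = 0.114) after loss of PDK1, and 0.46 (SE 0.0782, adjusted p = 0.013) and 0.44 (SE 0.0722, adjusted p = 0.0108) with AktI. Among the other 17 thioesterases measured, 0 passed, and the largest differences after loss of PDK1 were -0.36 for Acot6 (SE 0.124) and -0.21 for Acot11 (SE 0.0676). Among 16 measured brakes and switches of fatty acid oxidation, 0 passed. With the adjusted p of limma alone, 1 was higher with AktI, Sirt3 (0.40, SE 0.0725, adjusted p = 0.0166). Acaca, which makes the malonyl-CoA that blocks Cpt1a, gave -0.33 after loss of PDK1 (SE 0.0775, adjusted p = 0.0787). Pdk1, which encodes pyruvate dehydrogenase kinase and is not the gene deleted here, gave 0.33 (SE 0.08, adjusted p = 0.0877).

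**Figure D4:**
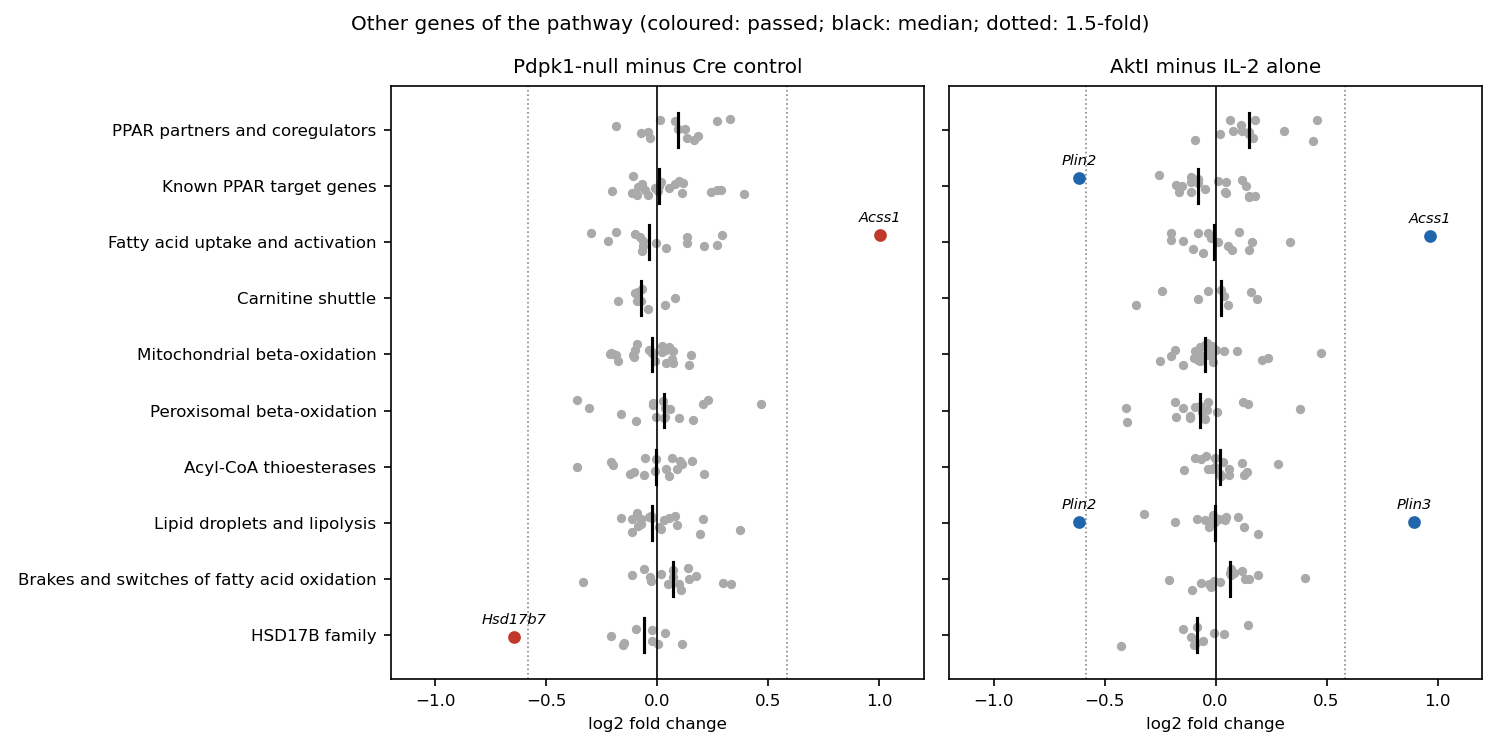
Log2 fold change (horizontal axis) of the measured genes of 10 pathway lists after loss of PDK1 (left) and with AktI (right), 1 point per gene, with the median of each list in black and dotted lines at 1.5-fold. Coloured and named points passed the test, and Plin2 is drawn in the 2 lists that hold it. The medians lie near 0 and few genes stand apart.

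The genes whose signals followed each changed gene most closely were found by Pearson correlation over the 12 arrays, each experiment centred on its own mean, among 12390 genes above background in some group. The points share their arrays and groups, so the values are a description. For Acot9 the closest were Tnfrsf22 (r = 0.982), Gab3 (0.981), Snx9 (0.974), Ppp2cb (0.971) and Ifi209 (0.969). For Hsd17b11 they were Wdr44 (r = 0.967), Il7r (0.964), Ankrd46 (0.959), S100a10 (0.958) and Dpp4 (0.955), of which Il7r encodes the IL-7 receptor alpha chain carried by naive and memory T cells. Il7r had log2 fold changes of 1.37 after loss of PDK1 and 1.11 with AktI. For Pparg the closest were Lrpprc (r = 0.968), Tsr1 (0.945), Kansl2 (0.945), Mpzl3 (0.943) and Gtf2f1 (0.941), whose log2 fold changes after loss of PDK1 lay between -0.28 and -0.17.

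Pparg, Hsd17b11 and other genes of fat handling are also expressed in cells other than CTL, so markers of such cells were summed on the linear scale. The study's methods describe magnetic isolation of CD8+ T cells before activation, whereas the labels of these arrays name splenic T cells and splenocytes. After loss of PDK1 the 8 measured B cell markers summed to 843 to 1163, against 673 to 838 in Cre control CTL, with 4 of 8 above background in each group and Cd79a and Ms4a1 below it. Ighm made up most of that sum, and its log2 fold change was 0.36 (adjusted p = 0.35). The 12 myeloid markers summed to 307 to 358 in Pdpk1-null CTL and 294 to 306 in controls, with 4 and 3 above background. The sums for 8 CD4 and regulatory T cell markers (322 to 373 against 313 to 341) and 6 basophil and mast cell markers (309 to 440 against 290 to 459) overlapped, with 5 of 8 and 4 of 6 above background in each group and Foxp3, Ms4a2 and Fcer1a below it. With AktI the myeloid sum was lower, at 320 to 346 against 412 to 492 with 2 of 12 above background in each group, and Cd68 fell by 1.30 on the log2 scale (adjusted p = 0.00563). With AktI the B cell markers summed to 1782 to 3343 against 2593 to 5365, the basophil and mast cell markers to 137 to 158 against 152 to 214 and the CD4 and regulatory T cell markers to 432 to 445 against 412 to 436, with 5 of 8, 2 of 6 and 3 of 8 above background in each group. Of these, Mcpt8, a protease of basophils, passed with AktI (adjusted p = 0.0465), from a mean of 5.96 to 4.87, which is below background, so the size of its fall is not settled. The part of these cells in the signals of the 10 genes was not tested.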

How the data were processed

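RNA of 12 CTL cultures was hybridised to Affymetrix mouse arrays. The deposited values are log2 signals, which the authors normalized with the robust multichip averaging of Affymetrix Expression Console 1.1, and no further normalization was applied. The tests covered 45037 of 45101 probe sets, leaving out 64 controls, and in the platform annotation 34945 of these name 1 gene, 932 several and 9160 none. Each comparison was fitted on its own 6 arrays with lmFit and eBayes of limma 3.58.1 in R 4.3.3, two-sided, and the difference of effects as the interaction over 12 arrays. Precision is limited by 3 arrays per group, and a permutation test of 3 against 3 cannot give a p below 0.1. The SAM procedure of the study's methods was not run.

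The members, the lists and the rule for naming genes were chosen with earlier results of these data known. Named were the 10 genes, Pdpk1, up to 4 called genes of each list or else its 2 largest changes after loss of PDK1, and the 5 closest genes of Pparg, Acot9 and Hsd17b11. Eci1, Crot, Scp2, Ech1, Plin4, Plin5, Rxra, Rxrb, Cpt2, Sirt3, Retn, Ighm, Cd68, Mcpt8, Kit, Cd4 and Il4 were named after their values were seen. The scripts were tested on simulated data.

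For AktI the labels give the mouse of each array, so equal numbers pair the arrays. The main fit left this pairing out, and the replicate block was run as an alternative. Deviations from the group means correlated between arrays of 1 mouse with r of 0.170, 0.0343 and 0.0607, against -0.102 to 0.0383 for other pairs. As alternatives, limma was run with a trend and robust variances, after quantile normalization, after a shift of each array to 1 median, without dim probe sets, with no or a 2-fold minimum, with the mean of a gene's probe sets or any of them, in 1 model of all arrays, with the replicate number as a block, and without each array in turn.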

Additional observations from a re-analysis of the deposited data

Results flagged for a closer look

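For Pparg the effect of PDK1 loss and the effect of AktI differed by -1.05 on the log2 scale (SE 0.194, adjusted p = 0.0329 in the interaction of limma over 12 arrays), which is why it is listed here. The log2 fold change was -1.02 after loss of PDK1, where all 3 Pdpk1-null arrays were below all 3 controls, and 0.02 with AktI. Pparg was 1.87 above background in Cre control CTL and below it, by 1.11 and 1.09, in CTL in IL-2 alone and with AktI. The Pdpk1 experiment also differed from the Akt experiment in its sex chromosome signals, with Xist at a mean log2 signal of 10.54 and 10.61 against 4.43 and 4.44. The part of these differences between the experiments in the result was not tested.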

How the results depend on the processing

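After loss of PDK1, the count of the 10 genes called higher went from 2 to 0 with a 2-fold minimum, and leaving out 1 array gave 1 to 2 higher (1 without Pdpk1-null replicate 3) and 0 to 1 lower (0 without any 1 of the Cre control arrays). With AktI, the count called higher went from 0 to 3 with no fold minimum, and to 0 to 1 on leaving out 1 array. For the difference of effects, the count called lower went from 1 to 0 with the replicate block and to 0 to 1 on leaving out 1 array. The block changed no other call of the 10 genes or of the pathway counts.
In the pathway lists after loss of PDK1, called higher (1) became 2 with no fold minimum and 0 with the mean of all probe sets, and 0 to 1 on leaving out 1 array. Called lower (1) became 0 with a 2-fold minimum, with the mean of all probe sets and with any probe set, and 0 to 1 on leaving out 1 array. With AktI, called higher (2) became 7 with no fold minimum, 0 with a 2-fold minimum, 1 with the mean of all probe sets and 4 with any probe set, and called lower (1) became 4 with no fold minimum, 0 with a 2-fold minimum and 0 to 1 on leaving out 1 array. For the difference, called higher (0) became 1 with quantile normalization, 1 with no fold minimum and 0 to 2 on leaving out 1 array.
With the mean of all probe sets, Hsd17b11 moved from 0.97 to 0.59 after loss of PDK1 and from 0.56 to 0.24 with AktI, and Acadl from 0.27 to 0.06 after loss of PDK1.
Reversed signs were all of values near 0. Ppard after loss of PDK1 was 0.00012 without Cre control replicate 2 and ranged from -0.14 to 0.00012 on leaving out 1 array, and Pparg with AktI was -0.045 without IL-2 alone replicate 1 and ranged from -0.045 to 0.096. The Ppard difference (0.01) was -0.0059 with arrays shifted to the same median, -0.023 with the mean of all probe sets, -0.054 with any probe set and ranged from -0.072 to 0.11 on leaving out 1 array, below 0 in 5 leave-outs. Over all genes, the 248 called after loss of PDK1 became 432 with no fold minimum, 76 with a 2-fold minimum and 98 to 328 on leaving out 1 array. The 461 called with AktI became 1199 and 151, and the 95 of the difference became 38 with a 2-fold minimum and 53 to 124 on leaving out 1 array. The causes were not tested.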
